A study of Homo sapiens with 6 samples.

Results

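The genes described here are the chemokines, interleukins and interleukin receptors of U-87 MG, a long-established cell line from a human glioblastoma, measured on 1-colour Affymetrix arrays. Members were chosen by name: gene symbols of the platform annotation that begin with CCL, CXCL, CCR, CXCR or IL followed by a digit, together with LIF, LIFR, IL6ST, CX3CL1, CSF1, CSF2 and CSF3 where the annotation held them. The rule found 111 of the 14884 genes that carried a symbol, and each was represented by its probe set with the highest mean over the 6 arrays. Of the 7 symbols added by name, LIF, LIFR, CX3CL1, CSF1 and CSF3 were found, and IL6ST and CSF2 were not analysed here. All values are log2 expression, so a difference of 1 is a doubling, and every difference is exposed minus unexposed.

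There were 3 arrays of cells exposed without a break for 54 h to RGFIELDS electromagnetic fields and 3 arrays of unexposed cells, each labelled as a separate biological replicate. The fields targeted CHI3L1, HSP70, the microRNA miR-381 and a mutated form of alpha-kinase 2, and exposure began 24 h after plating. All dishes held the same line in the same serum-containing medium and sat in boxes fed with the same gas mixture, but the exposed box stood inside a Faraday chamber and the unexposed box outside it, so field and box cannot be told apart. The description field of the exposed samples also contains the word control, while titles and source names of all 6 samples give the groups used here.

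Chemokines are small secreted proteins that attract leukocytes through G protein-coupled receptors. Many interleukins and some colony-stimulating factors, though not CSF1 or IL34, act on paired receptor chains that signal through JAK kinases and STAT factors. Receptors of the IL-1 and IL-17 families signal through adaptor proteins that lead to NF-κB. In glioma, tumour cells are known to release factors such as CCL2 and CSF1, which recruit and maintain macrophages and microglia, and the receptors for many of these ligands lie on immune cells that a pure culture lacks.

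Exposed cells had higher transcript levels of 4 secreted members and lower levels of 1 secreted member and 1 receptor chain. CSF1, CCL2, CXCL12 and the interleukin-36 receptor antagonist IL36RN rose, and IL11 and the interleukin-17 receptor chain IL17RC fell. These are the 6 members with a Benjamini-Hochberg adjusted p under 0.05 in limma, or 5.41% of the 111, while the same threshold was passed by 3.06% of all genes (1.40% higher and 1.67% lower). The other 105 members did not pass. In 15 members (13.5%) the exposed and unexposed values did not overlap, 7 higher and 8 lower, against 27.0% of all genes (13.2% higher and 13.8% lower). An unadjusted p under 0.05 was reached by 12 members (10.8%) and by 18.9% of all genes, with 5 members higher and 7 lower beside 8.71% and 10.2% of all genes. The median difference over the members was 0.0019, and over all genes 0.0029, with 56 members positive (50.5%, beside 50.7% of all genes) and 55 negative. Differences of the members thus lay on both sides of 0 about equally often, and the genes that passed were few.

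**Figure D1:**
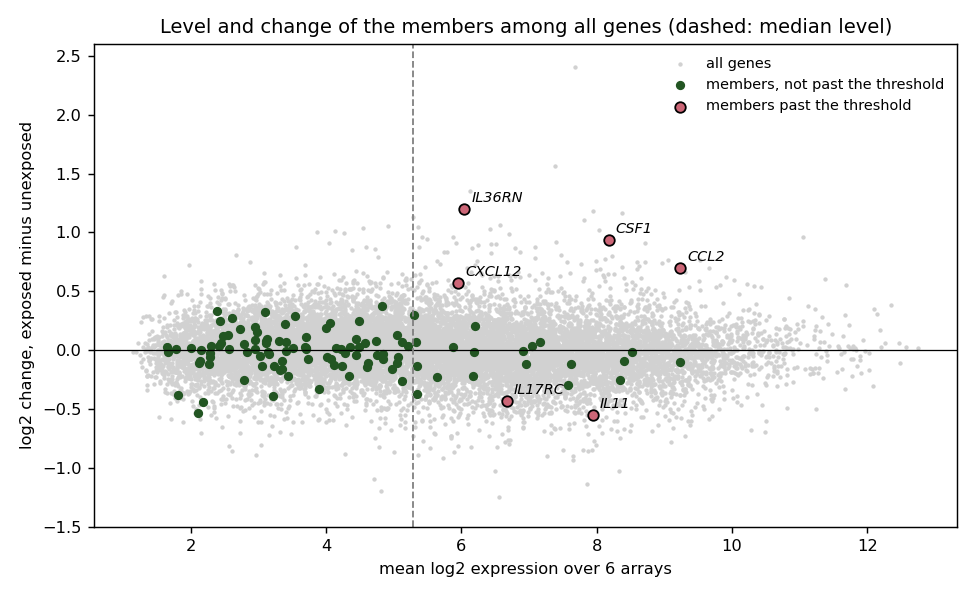
Difference between exposed and unexposed cells (log2, vertical axis) against mean log2 expression over 6 arrays (horizontal axis) for all 14884 genes in grey and the 111 members in colour. The 6 members past the threshold lie to the right of the dashed median level of 5.28, and most other members lie to its left near a difference of 0.

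Most members gave little signal. A mean over the 6 arrays above the median of all genes, 5.28, was reached by 25 of the 111 members (22.5%), and by 50.0% of all genes by construction. Signal also depends on the probes, so this does not rank the genes against each other, and the table has no detection calls. The 86 members at or below that level had differences from -0.53 to 0.37, and 0 of them passed in limma, with 2 at an unadjusted p under 0.05. All 6 changed members were among the 25. Of genes above the median level, 5.95% passed and 39.7% had groups without overlap, and among the 25 members 10 had groups without overlap.

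Among secreted members, the colony-stimulating factor CSF1, which keeps macrophages and microglia alive, differed most clearly. CSF1 (probe set 16668420) stood at 8.70, 8.78 and 8.45 in exposed replicates 1 to 3 and at 7.89, 7.48 and 7.76 in unexposed replicates 1 to 3. Every exposed array lay above every unexposed array, with a gap wider than the range within either group. The means were 8.64 ± 0.17 and 7.71 ± 0.21 (SD, n = 3 each), a difference of 0.94 (SE 0.12, 95% interval 0.65 to 1.23) or 1.92-fold, with a limma adjusted p of 0.0287. IL34, which binds the same receptor, was dim at 4.16 ± 0.31 in exposed cells and 4.13 ± 0.29 in unexposed ones (SD, n = 3 each), a difference of 0.02 with an interval of -0.46 to 0.51. The receptor gene CSF1R, which is no member, was at 5.77 ± 0.04 and 5.57 ± 0.14 (SD, n = 3 each) and did not pass (limma adjusted p = 0.335). CSF3, which drives the growth of granulocytes, overlapped between groups: 9.07, 9.04 and 9.45 in exposed and 9.42, 9.05 and 9.37 in unexposed cells. Its difference was -0.10 with an interval of -0.41 to 0.22.

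CCL2, the chemokine that draws monocytes, was the CC chemokine that passed the threshold. CCL2 (probe set 16833204) measured 9.63, 9.77 and 9.37 in exposed and 8.82, 8.73 and 9.11 in unexposed arrays. The groups did not overlap, and replicate 3 of the exposed and replicate 3 of the unexposed arrays were the nearest to each other. The difference was 0.70 (SE 0.13, interval 0.41 to 0.99), or 1.62-fold, with a limma adjusted p of 0.0348. Of the 23 CC and CX3C chemokines measured, CCL2 was the single member above the median level, and the other 22 did not pass. The eosinophil chemokine CCL11 had a difference of -0.53, but its values of 1.38, 1.73 and 2.40 in exposed and 2.65, 2.75 and 1.70 in unexposed cells overlapped, its interval ran from -1.33 to 0.26, and it moved to -0.87 without unexposed replicate 3 and -0.31 without exposed replicate 1. CCL26, which acts on the same receptor as CCL11, and CCL18 were named after their values were seen, since their groups did not overlap. CCL26 was at 5.01 ± 0.05 in exposed cells and 4.64 ± 0.34 in unexposed ones (SD, n = 3 each; limma adjusted p = 0.295), and CCL18 at 3.01 ± 0.14 and 3.40 ± 0.23 (limma adjusted p = 0.258).

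CXCL12, which guides stem cells and lymphocytes and is secreted by stromal cells, was the CXC chemokine that passed. CXCL12 (probe set 16713530) was at 6.23, 6.30 and 6.16 in exposed and 5.50, 5.64 and 5.85 in unexposed arrays. The exposed arrays lay close together and all above the unexposed ones. The difference was 0.57 (SE 0.11, interval 0.32 to 0.82), or 1.48-fold, with a limma adjusted p of 0.0402. The other 12 CXC chemokines did not pass, and 10 of the 13 had negative values. CXCL8, the main attractant of neutrophils, was at 5.53, 5.38 and 5.65 in exposed and 5.64, 5.73 and 5.89 in unexposed cells, an overlap of exposed replicate 3 with unexposed replicate 1. Its difference was -0.23 with an interval of -0.49 to 0.03. CXCL2, a further attractant of neutrophils, was nearly level at 7.19 ± 0.05 and 7.12 ± 0.06 (SD, n = 3 each), and CXCL14 was at 6.91 ± 0.12 and 6.92 ± 0.19 (SD, n = 3 each). The interferon-induced CXCL10 was dim, and exposed replicate 2 stood apart at 1.62 while the other 5 arrays lay between 2.27 and 2.67.

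To show the sequence before the start sites of members that moved in opposite directions, the bases upstream of CXCL12 and IL11 are given from RefSeq (GRCh38.p14), each 250 bases long, read 5′ to 3′ on the gene's strand and ending at the base before the start. The CXCL12 window is chr10:44385098-44385347 and the IL11 window chr19:55370464-55370713, both on the minus strand. Capitals mark every match to the GC box (GGGCGG), the AP-1 site (TGANTCA), the TATA box (TATAAA), the GAS element bound by STAT factors (TTC and GAA with 3 bases between them) or the NF-κB consensus, on either strand.
CXCL12: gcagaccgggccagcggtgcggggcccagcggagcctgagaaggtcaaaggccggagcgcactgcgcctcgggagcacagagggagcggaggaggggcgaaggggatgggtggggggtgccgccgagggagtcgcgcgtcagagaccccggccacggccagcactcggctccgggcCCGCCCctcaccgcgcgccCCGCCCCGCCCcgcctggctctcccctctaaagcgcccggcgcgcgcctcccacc
IL11: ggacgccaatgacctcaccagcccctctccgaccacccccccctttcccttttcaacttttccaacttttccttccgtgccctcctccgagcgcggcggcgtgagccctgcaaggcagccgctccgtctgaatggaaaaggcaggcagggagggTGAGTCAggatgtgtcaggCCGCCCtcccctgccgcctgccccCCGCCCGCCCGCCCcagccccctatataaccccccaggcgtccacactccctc
Both windows hold GC boxes, and the IL11 window holds an AP-1 match from 96 to 90 bases before the start. Some GC box matches touch or overlap each other, as the longer runs of capitals show. The GC box stood in 42.3% of the 27305 windows of this length in the table and the AP-1 match in 6.6%, against 32.1% and 16.0% of the windows of the 81 members that the table held. The NF-κB consensus stood in 5.05% of all windows, GAS in 6.78% and the TATA box in 11.1%, and in 14.8%, 12.3% and 23.5% of the member windows. None of these 3 patterns was found in the windows of CXCL12, IL11, IL36RN or IL17RC, which says only that these letters are not there. The IL11 window holds the similar run tatataa near its end, which the TATAAA pattern does not match. The windows of CCL2 and CSF1 were not analysed here. A match is a description of the sequence and not a site of binding.

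The chemokine receptors were mostly dim. Of 14 measured, 0 passed in limma, 1 had an unadjusted p under 0.05, and CCR1 alone was above the median level. CCR1, a receptor for CCL3 and CCL5, was at 6.04, 5.83 and 6.31 in exposed and 6.09, 6.33 and 6.43 in unexposed cells, with a difference of -0.22 and an interval of -0.55 to 0.11. The difference was -0.34 without exposed replicate 3 and -0.10 without exposed replicate 2. CXCR4, the receptor of CXCL12, was at 4.42 ± 0.04 in exposed cells and 4.47 ± 0.02 in unexposed ones (SD, n = 3 each), a difference of -0.04 with an interval of -0.29 to 0.20. CCR2, the receptor of CCL2, was at 2.98 ± 0.05 and 3.11 ± 0.24 (SD, n = 3 each), with an interval of the difference from -0.51 to 0.25. Thus for both chemokines that rose, the receptor gene gave little signal and did not pass. CCR7, a homing receptor of lymphocytes and dendritic cells that was named after its values were seen, was at 4.99 ± 0.05 in exposed cells and 5.26 ± 0.05 in unexposed ones (SD, n = 3 each; limma adjusted p = 0.175).

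In the IL-1 family, the natural antagonist of the interleukin-36 receptor had the largest difference of any member. IL36RN (probe set 16884607) stood at 6.64, 6.94 and 6.34 in exposed and 5.56, 5.02 and 5.74 in unexposed arrays. The lowest exposed array was above the highest unexposed array, and unexposed replicate 2 was the lowest of all. The difference was 1.20 (SE 0.21, interval 0.71 to 1.69), or 2.30-fold, with a limma adjusted p of 0.0336. The antagonist of the IL-1 receptor, IL1RN, is a near neighbour of IL36RN in the genome, with 1 other protein-coding gene of the RefSeq table between them. IL1RN was dimmer at 4.61 ± 0.25 in exposed cells and 4.36 ± 0.22 in unexposed ones (SD, n = 3 each), with a difference of 0.25 and an interval of -0.15 to 0.65. IL33, an alarm signal of injured tissue, differed by 0.18, IL18 by -0.09 and the anti-inflammatory IL37 by -0.03, and none of the 3 passed.

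Of the 8 IL-1 family receptors and binding proteins, 0 passed in limma and 1 had an unadjusted p under 0.05. This was IL1RAP, the accessory chain shared by the receptors for IL-1, IL-33 and IL-36. IL1RAP read 4.96, 5.24 and 5.26 in exposed and 5.51, 5.62 and 5.46 in unexposed arrays, with no overlap. Its difference of -0.37 (interval -0.64 to -0.11) had a limma adjusted p of 0.129, so it did not pass over all genes. IL1RL2, the chain that binds IL-36 and its antagonist, was dim, with a difference of -0.05 and an interval of -0.38 to 0.28. IL18BP, a secreted blocker of IL-18, was at 5.88 ± 0.08 and 5.86 ± 0.06 (SD, n = 3 each), with an interval of the difference from -0.18 to 0.23.

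In the IL-6 family, whose members signal through the shared chain gp130, IL11 fell. IL11 (probe set 16875754) was at 7.68, 7.59 and 7.73 in exposed and 8.26, 8.07 and 8.33 in unexposed arrays. The groups were well apart, and the exposed arrays were close together. The difference was -0.55 (SE 0.08, interval -0.75 to -0.36), or 0.681 times the unexposed level, with a limma adjusted p of 0.0298. LIF, which acts through LIFR and gp130, overlapped at 8.37, 8.33 and 8.39 in exposed and 8.55, 8.18 and 8.64 in unexposed cells. Its difference of -0.09 (interval -0.36 to 0.17) was -0.23 without unexposed replicate 2 and -0.0039 without unexposed replicate 3. The 3 receptor chains of this family among the members all had negative values without passing. LIFR was at 7.39, 7.31 and 7.61 in exposed and 7.69, 7.84 and 7.65 in unexposed arrays, a difference of -0.29 (limma adjusted p = 0.149). IL31RA, a receptor chain for the itch-inducing IL-31, was at 8.22, 8.06 and 8.39 against 8.55, 8.40 and 8.47, a difference of -0.25 (limma adjusted p = 0.189). Neither gene had overlapping groups, though in each the nearest arrays differed by under 0.05. IL6R had a difference of -0.11 with an interval of -0.32 to 0.09 and overlapped between groups. Chains outside the symbol rule, OSMR and CNTFR, had positive values. OSMR, the partner chain of IL31RA, was at 9.17 ± 0.07 and 9.03 ± 0.04 (SD, n = 3 each) and did not pass (limma adjusted p = 0.271). It was higher in every exposed array, with a difference of 0.14. CNTFR overlapped between groups, with a difference of 0.11 (limma adjusted p = 0.727).

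**Figure D2:**
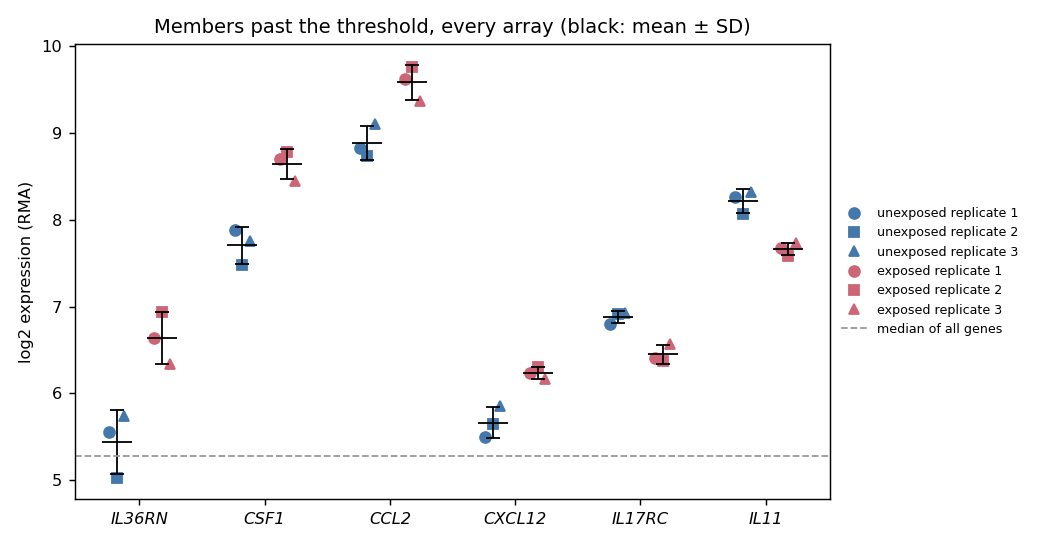
Log2 expression (vertical axis) of the 6 members past the threshold in each of the 6 arrays, with the mean and SD of each group in black and the median of all genes dashed. In every gene the 3 exposed arrays lie on 1 side of the 3 unexposed arrays, above them for IL36RN, CSF1, CCL2 and CXCL12 and below them for IL17RC and IL11.

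In the IL-17 family, which signals for defence at epithelia, the receptor chain IL17RC fell while its partner IL17RA did not pass. IL17RC (probe set 16937440) was at 6.41, 6.37 and 6.57 in exposed and 6.80, 6.92 and 6.93 in unexposed arrays. The highest exposed array was below the lowest unexposed array. The difference was -0.43 (SE 0.09, interval -0.63 to -0.24), or 0.740 times the unexposed level, with a limma adjusted p of 0.0429. IL17RA was at 8.60, 8.53 and 8.42 in exposed and 8.54, 8.55 and 8.51 in unexposed arrays. Its difference was -0.01 with an interval of -0.17 to 0.14, which does not reach the size of the IL17RC difference. The difference between the 2 chains' differences was itself not tested. Of the 6 ligands of the family, 0 passed in limma and 0 had an unadjusted p under 0.05. IL17C, an epithelial member, came nearest, with values of 5.54, 5.54 and 5.29 in exposed and 5.08, 5.00 and 5.37 in unexposed cells and a difference of 0.30 (limma adjusted p = 0.271). IL17D differed by 0.07 (interval -0.22 to 0.35).

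Receptors that use the common gamma chain or belong to its family did not pass, and their ligands were dim. IL21R was at 6.29, 6.39 and 6.24 in exposed and 6.03, 6.15 and 6.13 in unexposed arrays, without overlap, a difference of 0.20 (limma adjusted p = 0.249). IL4R, shared by the receptors for IL-4 and IL-13, was at 6.17 ± 0.09 and 6.19 ± 0.09 (SD, n = 3 each), with an interval of the difference from -0.22 to 0.20. IL7R, which lymphocytes need to survive, was at 7.56 ± 0.11 and 7.67 ± 0.04 (SD, n = 3 each), with an interval of -0.29 to 0.06. The 6 ligands, among them IL2, IL4, IL7 and IL15, had differences from -0.06 to 0.23, and 0 passed in limma, with 0 at an unadjusted p under 0.05. In the IL-10 family, IL24, a secreted factor first studied in melanoma, was at 5.55, 4.89 and 5.39 in exposed and 5.50, 5.23 and 5.50 in unexposed cells. Its difference of -0.13 was low through exposed replicate 2, and was 0.06 without that array. IL4I1, an enzyme that oxidises amino acids and carries an IL symbol only by name, was at 7.07 ± 0.09 and 7.03 ± 0.06 (SD, n = 3 each). The 5 noncoding, readthrough and pseudogene entries among the members, such as IL21R-AS1 and CXCR2P1, were dim and did not pass; the annotation does not say whether their probe sets separate them from their coding neighbours.

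**Figure D3:**
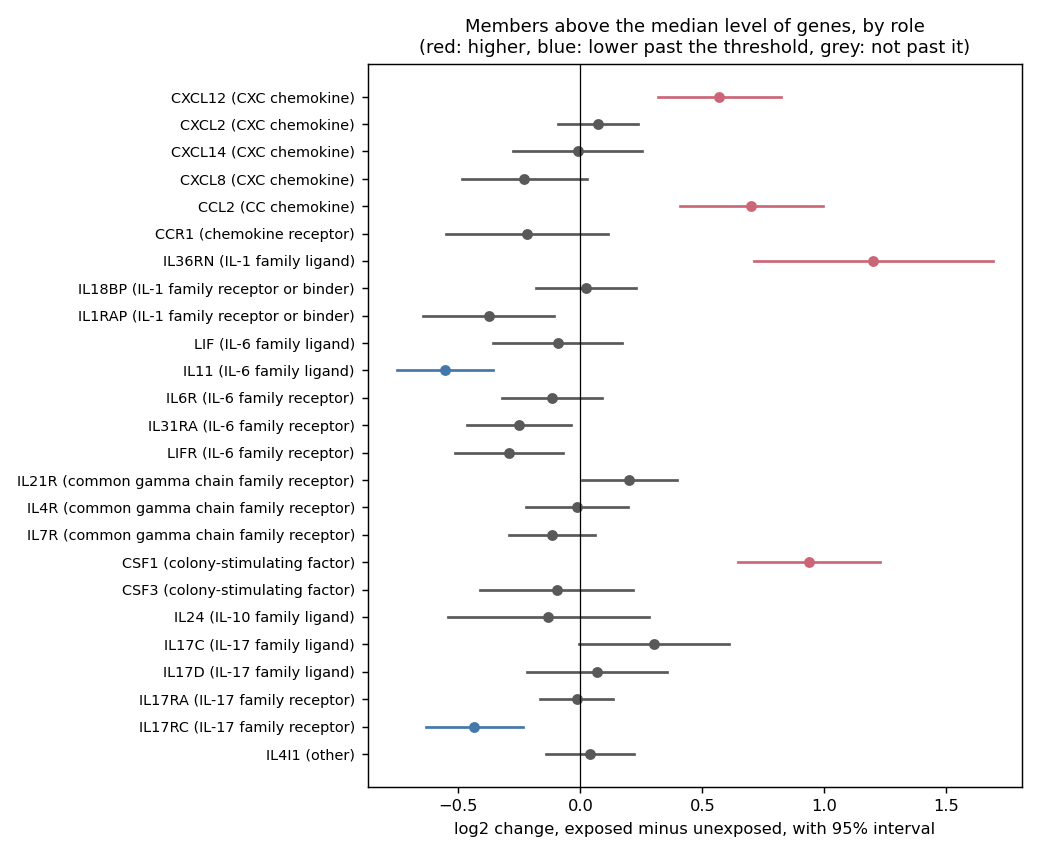
Differences between exposed and unexposed cells (log2, horizontal axis) with 95% intervals for the 25 members above the median level of genes, grouped by role. IL36RN, CSF1, CCL2 and CXCL12 are to the right of 0 and IL11 and IL17RC to the left past the threshold, while the grey members did not pass.

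Set by role, 68 members were ligands and 36 were receptor chains. Of the ligands, 4 rose, 1 fell and 63 did not pass. Of the receptor chains, 0 rose and 1 fell in limma, and at an unadjusted p under 0.05 there were 1 higher and 5 lower, where 8.71% of all genes were higher and 10.2% lower by that measure. The remaining members were IL18BP, IL4I1 and the 5 entries named above. The median difference was 0.0076 for ligands and -0.01 for receptor chains, beside 0.0029 for all genes. In the ligands that rose, exposed replicate 3 had the lowest exposed value of CSF1, CCL2, CXCL12 and IL36RN alike, and exposed replicate 2 the highest. This order was not particular to them. In IL11 and IL17RC, which fell, exposed replicate 2 was the lowest and exposed replicate 3 the highest. The same 2 arrays were at the extremes in DPP4 and MMP1, which are no members, though not in SOCS3 or SOCS5.

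Each of these calls depended on the set of arrays used. No member passed when replicate 1 or 2 of the exposed or replicate 2 or 3 of the unexposed arrays was left out. In these settings 8 to 13 of the 111 members had an unadjusted p under 0.05, beside 2065 to 2287 of all 14884 genes. Without unexposed replicate 1, CSF1 alone passed, and without exposed replicate 3 all but CXCL12 passed. The differences themselves moved little: with each array left out in turn, CSF1 lay between 0.82 and 1.03, CCL2 between 0.61 and 0.81, CXCL12 between 0.49 and 0.66 and IL36RN between 0.99 and 1.35. IL11 lay between -0.63 and -0.50, and IL17RC between -0.49 and -0.39. The largest adjusted p of these 6 genes over the same settings was 0.153. When p-values were adjusted over all 53617 probe sets in place of genes, CSF1 and IL11 passed, at 0.0376 and 0.0441, and the other 4 lay between 0.0533 and 0.0695. The 4 rises passed with every scaling of the arrays tried. Centred on ribosomal protein genes, the falls did not pass, with IL11 at -0.46 (limma adjusted p = 0.0539) and IL17RC at -0.34 (0.0784). No member passed without the mean-variance trend, without variance moderation or with the replicate number as a block in the fit.

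**Figure D4:**
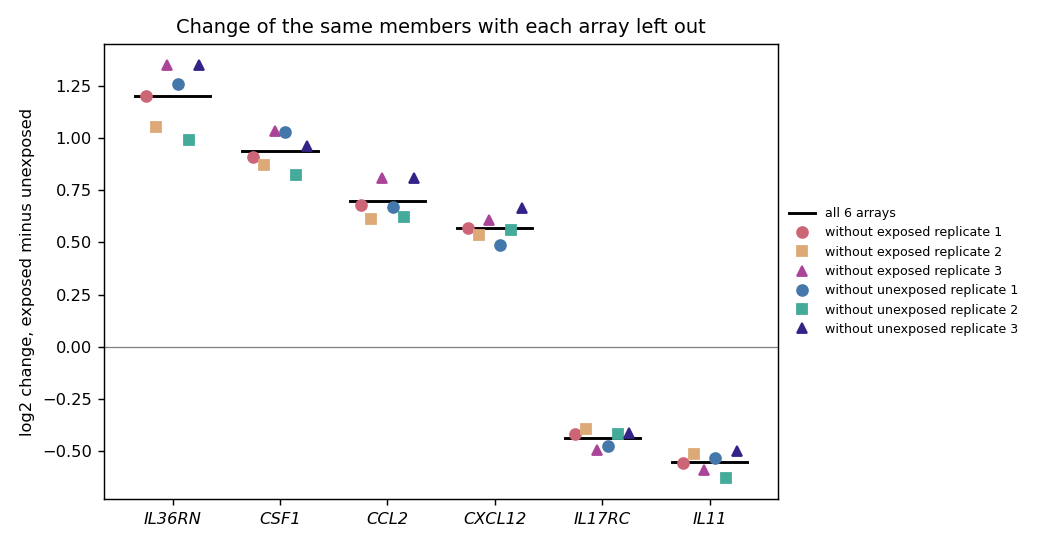
Difference between exposed and unexposed cells (log2, vertical axis) of the 6 members past the threshold, with all 6 arrays (black line) and with each array left out (symbols). The groups of these genes do not overlap, so the sign cannot change when an array is left out. IL36RN has the widest range, from 0.99 to 1.35.

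Genes that carry or restrain these signals were taken from 4 lists. The lists were chosen with earlier results of these data known, so their counts beside the shares of all genes are only a description. Over all genes, 1.40% rose and 1.67% fell. Of 18 measured JAK-STAT genes, 1 rose, 2 fell and 15 did not pass. An unadjusted p under 0.05 was reached by 10 of the 18, 5 higher and 5 lower, beside 18.9% of all genes. Both genes that fell past the threshold encode suppressors of cytokine signalling, which dampen receptor signals. The 7 measured genes of that name did not share a direction. SOCS3, the suppressor that acts on gp130, was at 8.82, 8.91 and 8.97 in exposed and 9.34, 9.23 and 9.32 in unexposed arrays, a difference of -0.39 (SE 0.06, limma adjusted p = 0.0312). Every exposed array was lower. SOCS5 was at 7.75, 7.80 and 7.82 against 8.12, 8.14 and 8.09, a difference of -0.33 (SE 0.06, limma adjusted p = 0.0345). Centred on ribosomal protein genes, SOCS3 was at -0.30 (limma adjusted p = 0.105) and SOCS5 at -0.24 (0.163), and with its probe sets averaged SOCS3 was at -0.26 (0.0759). SOCS1 had a difference of 0.43 (limma adjusted p = 0.147) and was higher in every exposed array, SOCS4 had 0.12, SOCS7 -0.0056, SOCS6 -0.20 and SOCS2 -0.53, and none of these 5 passed. BCL6, a transcriptional repressor, rose by 0.43 (SE 0.09, limma adjusted p = 0.0469), and its call was lost when arrays were normalized again or centred. JAK1, a kinase of gp130 receptors, was at 9.89 ± 0.10 and 9.70 ± 0.01 (SD, n = 3 each) and did not pass (limma adjusted p = 0.145). Of 24 measured genes of NF-κB and IL-1 signalling, 0 passed in limma, while 9 had an unadjusted p under 0.05, 5 higher and 4 lower, beside 3.06% of all genes that passed and 18.9% under that unadjusted p. The nearest were BCL3, an IκB family member, at 0.41 (limma adjusted p = 0.0727), the IL-1 receptor kinase IRAK2 at 0.31 (0.0898), TRAF3 at -0.32 (0.110) and the IκB kinase subunit CHUK at -0.26 (0.169). IRAK2 passed without exposed replicate 3 (0.0450).

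Of 25 measured cytokines, receptors, proteases and other cytokine partners outside the symbol rule, DPP4 rose and 24 did not pass. An unadjusted p under 0.05 was reached by 3 of the 25, beside 18.9% of all genes. DPP4, a surface protease that trims CXCL12 and other chemokines, was at 7.93, 8.01 and 7.67 in exposed and 6.96, 7.17 and 7.06 in unexposed arrays. The groups were far apart, with a difference of 0.81 (SE 0.10, limma adjusted p = 0.0287). ACKR3, a scavenging receptor of CXCL12, was at 3.93 ± 0.23 and 3.73 ± 0.13 (SD, n = 3 each) and did not pass, and XCR1 had a difference of 0.39 (limma adjusted p = 0.124). PF4 and MIF had differences of -0.15 and -0.04, each with an interval that spans 0. Of 17 measured genes that inflammatory cytokines commonly induce, 2 rose, 2 fell and 13 did not pass. An unadjusted p under 0.05 was reached by 8 of the 17, 6 higher and 2 lower, beside 18.9% of all genes. BDKRB1, the inducible bradykinin receptor, rose by 1.18 (SE 0.19) and TLR3, a sensor of viral RNA, by 1.03 (SE 0.17). MMP1, a collagenase, was at 8.71, 8.37 and 9.02 in exposed and 9.46, 9.45 and 9.54 in unexposed arrays and fell by 0.78 (SE 0.14, limma adjusted p = 0.0364). HAS2, which makes hyaluronan, fell by 0.73 (SE 0.15, limma adjusted p = 0.0438). These calls on list genes were lost in the same 4 settings as those of the members, and SOCS5 and HAS2 passed in none of the 6 settings with an array left out.

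**Figure D5:**
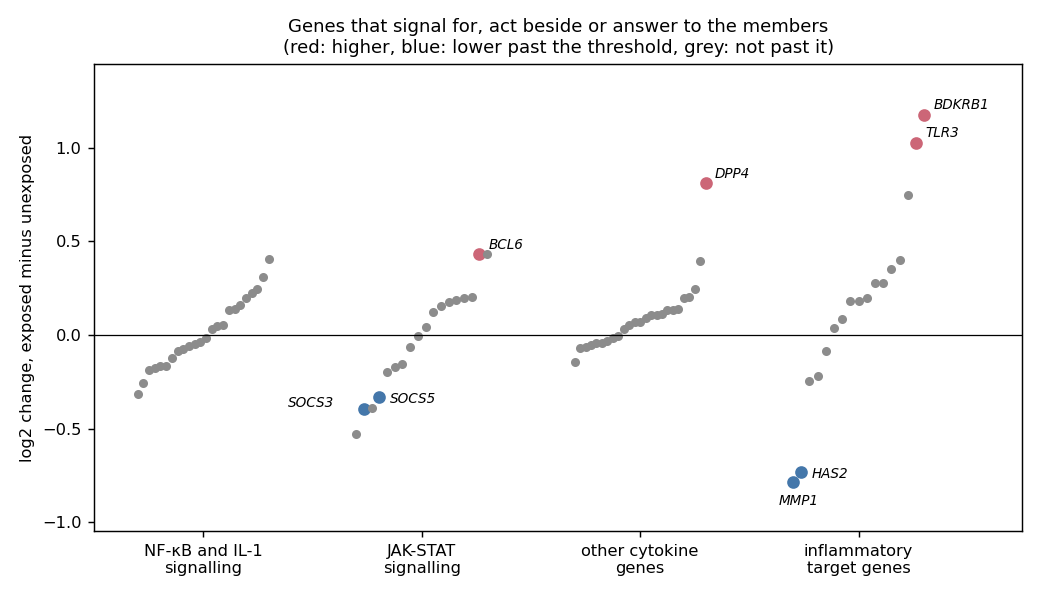
Differences between exposed and unexposed cells (log2, vertical axis) for the measured genes of the 4 lists, ordered within each list, with genes past the threshold coloured and named. JAK-STAT genes past the threshold lie on both sides of 0, as do the inflammatory target genes, and none of the 24 NF-κB and IL-1 signalling genes is coloured.

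Of 13 measured glioma and mesenchymal markers, 10 were above the median level, with FN1, TNC and VIM between 10.5 and 12.1 in both groups, while GFAP, SOX2 and S100B gave little signal (group means of 4.86 to 5.21, 3.57 to 3.62 and 3.26 to 3.68). In this list 0 rose and 1 fell in limma, while 3.06% of all genes and 5.95% of genes above the median level passed. An unadjusted p under 0.05 was reached by 6, 2 higher and 4 lower, beside 18.9% of all genes. The marker that fell was EGFR, a growth factor receptor, at 9.42 ± 0.05 in exposed cells and 9.72 ± 0.03 in unexposed ones (SD, n = 3 each), a difference of -0.30 (limma adjusted p = 0.0348) with every exposed array lower. Of 9 measured macrophage and microglia markers, 0 passed in limma and 1 (TMEM119) had an unadjusted p under 0.05, 8 had positive values, 5 were higher in every exposed array (beside 13.2% of all genes), and their summed log2 level was 45.1 to 46.2 in exposed and 42.8 to 44.7 in unexposed arrays. The 5 were TMEM119, with a difference of 0.65 (limma adjusted p = 0.0835), CD14 with 0.36, TYROBP with 0.23, CSF1R with 0.20 and CD68, a lysosomal protein also made by tumour cells, with 0.06. CD68 stood above 12 in both groups, CD14 was dim at 3.33 ± 0.07 and 2.97 ± 0.22 (SD, n = 3 each), and CD163, LYZ and CX3CR1, whose groups overlapped, had group means of at most 3.70. Of 6 lymphocyte, 6 endothelial and 6 neutrophil or monocyte markers measured, 0 passed in limma and 0 had an unadjusted p under 0.05. The part of these markers in the rise of CSF1 and CCL2 was not tested. In bulk RNA, fewer cells that express a gene and less RNA per cell cannot be told apart.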

How the data were processed

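Total RNA of 3 exposed and 3 unexposed cultures was hybridised to 1 array each. The authors deposited log2 values per probe set, summarised with RMA in Affymetrix Expression Console 3.0 (the notes also name Transcriptome Analysis Console 3.0), per the submitters' processing notes; what other settings were used is not given in the sources used here. RMA makes array distributions alike, so a change in total RNA per cell would not show. The number of arrays limits the precision.

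Differences were fitted on all 53617 probe sets with limma 3.58.1 in R 4.3.3 (lmFit and eBayes, trend on mean level; two-sided tests, no covariates, no filter). The Benjamini-Hochberg adjustment ran over the representative probe sets of 14884 genes, at a threshold of 0.05. The procedure was tested on simulated data. Members and lists were chosen with earlier results of these data known. Named are members and list genes past the threshold, the 12 members with the highest signal, members differing by at least 0.5, and the 2 genes with the smallest p per direction in each role group (above the median level) and list; every other gene was named after its values were seen. Alternatives were a replicate block, other scalings, trend, moderation, filter, probe set and testing-family choices, and leaving out each array. Figures were drawn with matplotlib 3.10.9.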

Additional observations from a re-analysis of the deposited data

How the results depend on the processing

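With 3 arrays a group, the calls rest on few degrees of freedom. The signs of the 6 changed members held under all 16 alternatives, but most of these could not change a sign. The groups of these members did not overlap, so the sign stays whichever array is left out. The block, trend, moderation and testing-family choices leave the difference itself as it was. Counts of members called higher and lower were 4 and 2, and 0 and 0 with a replicate block, without a mean-variance trend and without variance moderation, as were all counts of list genes. The labels do not say whether replicate numbers pair the arrays. Same-numbered arrays had correlations of their deviations of -0.03, -0.07 and -0.04, and other pairs of -0.02 to 0.06. With 3 arrays a group these values cannot settle it. Adjusted over all probe sets, 1 member was called higher and 1 lower, with 0 and 1 JAK-STAT genes and 1 and 0 inflammatory genes. Centred on ribosomal protein genes, 0 members were lower, JAK-STAT genes were 0 and 0 and 1 inflammatory gene was lower. The median over members was then 0.0934, and -0.0208 over probe sets above the median level, where 55 members were tested. With quantile normalization again or arrays centred on medians, 0 JAK-STAT genes were higher, and with probe sets averaged per gene 1 was lower. A fit on representative probe sets alone, chosen after seeing the data, called 2 NF-κB genes and 4 inflammatory genes higher. With each array left out in turn, members called higher ranged from 0 to 3 and lower from 0 to 2. The member median ranged from -0.0126 to -0.0069, and members without overlap from 23 to 33 (15 with all arrays). Smaller groups separate more easily, so these counts cannot be compared with 15. The share of all genes without overlap is not given for these settings. In the lists, genes called higher and lower ranged from 0 to 1 and 0 to 1 for JAK-STAT and 0 to 3 and 0 to 1 for inflammatory genes. For both the NF-κB genes and the cytokine partners outside the symbol rule they ranged from 0 to 1 and 0 to 0. Some genes near 0 changed sign. With quantile normalization again these were CXCL14 (0.0233), IL17RA (0.0012) and IL4R (0.0025), and with ribosomal centring CXCL14 (0.0802), IL17RA (0.0765), IL4R (0.0795) and MIF (0.0483). With an array left out they were CXCL14 (-0.0841 to 0.0955), IL17D (-0.0438 to 0.167), IL17RA (-0.0567 to 0.0317), IL18BP (-0.0239 to 0.0559), IL24 (-0.266 to 0.0613), IL4I1 (-0.0108 to 0.0806), IL4R (-0.0576 to 0.0339) and MIF (-0.0822 to 0.0165). The cause was not tested.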

Other observations

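Of the 4 members that lie within 6 protein-coding genes of CCL2 in the gene order of the RefSeq table, none passed in limma or had an unadjusted p under 0.05, and all were dim with groups that overlapped. CCL7, the next gene, had a difference of -0.44 (interval -0.89 to 0.01), CCL11 one of -0.53, CCL8 one of -0.38 (interval -0.88 to 0.13) and CCL1 one of 0.22 (interval -0.16 to 0.61). IL17RE, which adjoins IL17RC, was at 5.16 ± 0.40 in exposed cells and 5.09 ± 0.41 in unexposed ones (SD, n = 3 each), a difference of 0.07 with an interval of -0.52 to 0.65. Complement genes that inflammatory cytokines induce were higher in every exposed array without passing: C3 had a difference of 0.75 (limma adjusted p = 0.0641) and CFB one of 0.40 (limma adjusted p = 0.0855). These genes were named after their values were seen.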
